A study of Mus musculus with 8 samples.

Results

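The addition of AzaC to TSA was examined in 4 of the 8 arrays of the series: the 2 arrays of cells given both agents (AzaC/TSA) and the 2 arrays of cells given TSA alone, with each AzaC/TSA array set against the TSA array of its own experiment. The cells were neurospheres, floating cultures rich in neural stem cells and progenitors, grown from single forebrains of mouse embryos at embryonic day 14.5. All 4 groups came from embryos with a bcl2 transgene, an anti-apoptotic gene, so no group lacks it; its promoter was not given in the sources used here. TSA (trichostatin A, 150 nM) was given for 2 days to both groups, and AzaC (5-aza-2'-deoxycytidine, 500 nM) was present over the same 2 days in the AzaC/TSA group only. Untreated cells and cells with AzaC alone, again 2 arrays each, stand beside them. Every group held 1 array from each of 2 independent experiments, so the p-values below each compare 2 arrays with 2, with the spread shared over all 8. Signals are linear array intensities, and a difference between groups is given on the log2 scale after values under 20 were raised to 20.

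AzaC is a cytidine analogue that is built into DNA during replication and traps DNA methyltransferases, so that CG sites lose methylation as cells divide. TSA inhibits histone deacetylases, the enzymes that remove acetyl groups from histone tails. Neural stem cells of the embryonic forebrain are known by the intermediate filament protein Nes, by the radial glial lipid carrier Fabp7, by Sox and Pax transcription factors, and by receptors of the Notch, EGF and FGF pathways.

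Arrays were alike in scale and differed little in overall signal, with a median signal of 59.2 to 72.7 and 53.1% to 58.3% of probe sets at a signal of 50 or more. The ratio of 5' to 3' signals of the actin control probe sets, a sign of RNA integrity, was 0.33 and 0.378 with TSA and 0.29 and 0.39 with AzaC/TSA, and its part in the results was not tested. Nes lay between 1049.0 and 3003.1 and Sox2 between 2390.5 and 4830.5 on the 8 arrays, and Ptprc, the pan-leukocyte phosphatase, did not exceed 19.2 on any. These are bulk samples, so that fewer cells of a type and less RNA per cell cannot be told apart.

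The comparison sets apart what a DNA methyltransferase inhibitor adds when a histone deacetylase inhibitor is present over the same 2 days. With limma, 0 of 7987 probe sets (0.0%) passed an adjusted p of 0.05 between AzaC/TSA and TSA, and the smallest adjusted p was 0.376. At an unadjusted p under 0.05 there were 185 (2.32%), with 108 higher and 77 lower in AzaC/TSA. With the experiment as a block, 0 passed as well, with a smallest adjusted p of 0.186. The median standard error of a log2 difference was 0.41, which gives a 95% half-width of 0.93 for a typical probe set before adjustment. After adjustment over all probe sets, even differences of the size of Reg2 (-2.59, a bound) had an adjusted p of 1.0. Dropping the filter on low signals, so that 12422 probe sets entered, gave 11 calls (4 higher, 7 lower), and none of the 11 exceeded a signal of 58.4 on any array.

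The 2 experiments shared little of the difference. Across all 7987 probe sets (genes are not replicates of a condition), the AzaC/TSA minus TSA difference of experiment 1 correlated with that of experiment 2 at r = 0.06, and 4130 (51.7%) had the same direction in both. Among the 1435 probe sets with a mean log2 signal of 9 or more, r was 0.25 and 60.7% had the same direction. The TSA minus untreated difference, by comparison, correlated between experiments at r = 0.56 over all probe sets and at 0.77 over the brightest. At least 2-fold in both experiments, 49 probe sets (0.613%) were higher and 47 (0.588%) lower in AzaC/TSA, while 87 (1.09%) passed 2-fold in opposite directions. Of the 96 with the same direction, 61 had a TSA or AzaC/TSA array under the floor of 20, and 10 had all 4 arrays at 50 or more. With 1 probe set per gene, 1484 of 6011 genes (24.7%) were higher with AzaC added in both experiments and 1665 (27.7%) were lower. Both AzaC/TSA arrays lay above both TSA arrays for 741 genes (12.3%) and below both for 914 (15.2%).

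**Figure D1:**
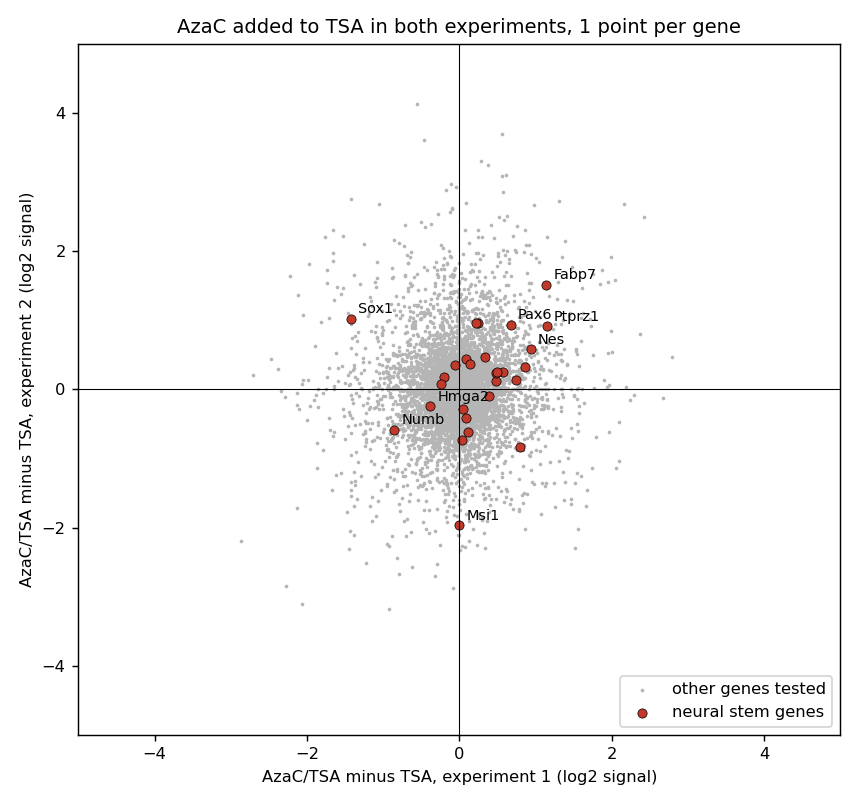
AzaC/TSA minus TSA (log2 signal) in experiment 1 on the x axis and in experiment 2 on the y axis, 1 point for each of the 6011 genes tested, with the 28 neural stem genes in red. The cloud is round, with r = 0.06 over all probe sets, and 15 of the 28 neural stem genes lie above 0 on both axes, Fabp7 farthest out.

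More neural stem and progenitor genes were higher than lower with AzaC added, by differences that did not pass the test. Of 46 listed genes 33 were on the array and 28 were tested; 15 of the 28 (53.6%) were higher with AzaC added in both experiments, against 24.7% of all genes, and 2 (7.14%), Numb and Hmga2, were lower in both, against 27.7%. The other 11 differed in direction between experiments or were level in 1 of them. The list was chosen with earlier results of these data known. The share of all genes includes many dim ones: of the 1435 probe sets with a mean log2 signal of 9 or more, 447 were higher in both experiments and 424 lower. The list's median difference was 0.26 (0.23 in experiment 1 and 0.25 in experiment 2) against -0.02 for all genes. In 6 of the 28 both AzaC/TSA arrays lay above both TSA arrays (Nes, Fabp7, Pax6, Egfr, Fgfr1 and Dll1), against 12.3% of all genes. In 0 they lay below both, against 15.2%. With limma 0 of the 28 passed, also with the block, and 1, Fabp7, had an unadjusted p under 0.05. The median moved when 1 array was left out, which unbalances the experiments, so that it then also holds the difference between them. It was -0.01 without the TSA array of experiment 2 and -0.02 without the AzaC/TSA array of experiment 1. Without the TSA array of experiment 1 it was 0.34, and without the AzaC/TSA array of experiment 2 it was 0.52.

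The sequences printed here show the regions just upstream of 3 of these genes and their CG, the dinucleotide that DNA methyltransferases act on. They are the 250 bases before the annotated starts of Fabp7, Ptprz1 and Nes, genes that were higher with AzaC added in both experiments, from RefSeq on GRCm38.p6, 5' to 3' on the gene's strand, with every CG in capitals.
Fabp7 (chr10:57784673-57784922, plus strand): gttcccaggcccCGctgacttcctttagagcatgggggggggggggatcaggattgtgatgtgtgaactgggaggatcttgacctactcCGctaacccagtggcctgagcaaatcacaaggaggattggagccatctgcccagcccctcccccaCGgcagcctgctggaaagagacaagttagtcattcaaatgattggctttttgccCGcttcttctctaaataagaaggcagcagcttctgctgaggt
Ptprz1 (chr6:22875252-22875501, plus strand): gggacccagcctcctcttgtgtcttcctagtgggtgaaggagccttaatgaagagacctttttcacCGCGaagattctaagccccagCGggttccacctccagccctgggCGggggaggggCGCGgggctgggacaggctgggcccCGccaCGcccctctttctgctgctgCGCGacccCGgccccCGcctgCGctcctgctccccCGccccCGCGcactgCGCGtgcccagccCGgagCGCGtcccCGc
Nes (chr3:87970843-87971092, plus strand): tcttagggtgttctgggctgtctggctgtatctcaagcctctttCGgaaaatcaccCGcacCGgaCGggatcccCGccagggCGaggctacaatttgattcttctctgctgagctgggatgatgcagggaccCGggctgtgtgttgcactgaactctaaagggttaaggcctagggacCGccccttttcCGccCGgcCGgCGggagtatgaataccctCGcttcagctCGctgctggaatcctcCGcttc
The CG dinucleotide reads the same on both strands, and 94.6% of the 32851 reference promoter windows of 300 bases hold at least 1, with a median of 7.0; the median was 21.0 for the genes tested that had a promoter (81.0%). The window, which adds 50 bases after the start, holds 6 for Fabp7, 29 for Ptprz1 and 18 for Nes. In it the observed over expected CG ratio was 0.28 for Fabp7, 0.77 for Ptprz1 and 0.70 for Nes. A CG count is a description of the letters, and DNA methylation was not measured in these samples. A comparison of CG content over gene groups was void, because a promoter was matched for only 62.1% of the genes at least 2-fold higher in both experiments, 67.6% of those at least 2-fold lower and 71.4% of the neural stem genes, under the 80% that it needs.

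Fabp7, the brain fatty acid binding protein of radial glia, had the largest difference among the neural stem genes. Its signal was 9310.1 and 10919.9 in untreated cells of experiments 1 and 2, 2496.9 and 1062.9 with TSA, and 5499.6 and 3035.9 with AzaC/TSA. Both AzaC/TSA arrays lay above both TSA arrays and below both untreated arrays. AzaC/TSA was 2.51-fold above TSA, a log2 difference of 1.33 (SE 0.43, 95% interval 0.36 to 2.29, n = 2 arrays per group, limma unadjusted p = 0.0124, adjusted p = 1.0), with 1.14 in experiment 1 and 1.51 in experiment 2. Fabp7 fell by 2.63 with TSA alone (limma adjusted p = 0.0133), whereas AzaC/TSA stood at -1.30 from untreated and did not pass (adjusted p = 0.155; 0.0258 with the experiment as a block). These comparisons share the TSA or untreated arrays, so their values are set side by side and no relation between them was tested. With AzaC alone the signal was 10572.9 and 7830.3, a log2 difference of -0.15 from untreated (SE 0.43), and the interaction, the test of whether AzaC acts differently with TSA present, was 1.47 (limma unadjusted p = 0.0368, adjusted p = 1.0).

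Ptprz1, a receptor-type tyrosine phosphatase of radial glia and glial progenitors, read 1899.0 and 1829.2 in untreated cells, 597.5 and 157.4 with TSA and 1324.5 and 296.5 with AzaC/TSA. AzaC/TSA was above TSA within each experiment, by 1.15 and 0.91, but the groups overlapped, since both arrays of experiment 2 were lower than those of experiment 1. The difference was 1.03 (SE 0.73), and the gene's other probe sets gave 0.30 and 0.54. Ptprz1 with TSA alone lay at -2.60 from untreated (limma adjusted p = 0.0797; 0.00595 with the block).

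Nes read 2376.2 and 2053.3 untreated, 1049.0 and 1949.5 with TSA and 2007.7 and 2921.2 with AzaC/TSA. Both AzaC/TSA arrays lay above both TSA arrays, 1 of them just below and 1 above the untreated arrays, with a difference of 0.76 (SE 0.34, 95% interval -0.01 to 1.53, limma unadjusted p = 0.0515).

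Of the transcription factors of the list, Pax6 had the largest upward difference. Pax6, a homeodomain factor of radial glia, read 91.7 and 154.1 untreated, 39.2 and 42.6 with TSA and 62.5 and 81.6 with AzaC/TSA. The AzaC/TSA arrays lay above the TSA arrays and below the untreated array of the same experiment, with a difference of 0.81 (SE 0.48). Sox2, which maintains neural progenitors, read 3474.0 and 2390.5 with TSA and 4830.5 and 2819.0 with AzaC/TSA (0.36, SE 0.30), and the groups overlapped. Sox3, its close relative, had a difference of 0.41 (SE 0.40). Sox1 read 66.4 and 20.7 with TSA and 24.8 and 42.0 with AzaC/TSA, so that it was lower in experiment 1 and higher in experiment 2. Zic1, a zinc finger factor of the dorsal neural tube, differed by -0.25 and Hmga2, an architectural chromatin protein of young stem cells, by -0.31 with an SE of 1.06.

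Growth factor receptors lay on the higher side. Egfr, the EGF receptor, read 262.8 and 223.9 untreated, 184.6 and 188.4 with TSA and 256.9 and 204.9 with AzaC/TSA, without overlap (0.30, SE 0.28). Another Egfr probe set read 178.8 and 158.7 untreated, 83.8 and 80.2 with TSA and 183.0 and 170.6 with AzaC/TSA, a difference of 1.11 (SE 0.30, limma unadjusted p = 0.00477, adjusted p = 1.0), and the remaining one gave 0.45. All of the gene's probe sets had the same direction in both experiments, and they differed in size. Fgfr1, an FGF receptor, read 474.2 and 432.8 with TSA and 524.2 and 559.2 with AzaC/TSA (0.26, SE 0.26), again without overlap.

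In the Notch pathway, through which neighbouring progenitors hold one another undifferentiated, the receptor Notch1 read 887.2 and 488.7 with TSA and 1123.9 and 673.8 with AzaC/TSA (0.40, SE 0.36), higher in each experiment with overlapping groups. The ligand Dll1 differed by 0.44 and the effector Hey1 by 0.59. The effector Hes1 differed by -0.01 and the DNA-binding partner Rbpj by -0.08. Numb, which antagonises Notch, read 44.0 and 47.8 untreated, 167.9 and 87.3 with TSA and 92.6 and 58.3 with AzaC/TSA, lower in each experiment (-0.72, SE 0.47). Hes5, a Notch effector that was too dim to be tested, read 12.4 and 12.7 with TSA and 93.8 and 36.8 with AzaC/TSA, and at most 37.1 elsewhere.

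The remaining members were mixed. Bmi1, a Polycomb protein needed for stem cell renewal, read 1573.8 and 1514.0 untreated, 801.8 and 571.1 with TSA and 847.5 and 777.9 with AzaC/TSA. It fell by 1.19 with TSA (limma adjusted p = 0.0424) and was 0.26 above TSA with AzaC added (SE 0.27), still under the untreated arrays. Ccnd2, a D-type cyclin, read 1965.5 and 930.6 with TSA and 2332.8 and 1809.1 with AzaC/TSA (0.60, SE 0.35). Prom1, a membrane glycoprotein of stem cells, differed by 0.59 with a second probe set at -0.09, the matrix protein Tnc by 0.38 and the cadherin Cdh2 by 0.14. Mfge8, a secreted glycoprotein, rose with TSA by 1.18 (limma adjusted p = 0.0354) and differed by -0.12 with AzaC added. The Id proteins, which block basic helix-loop-helix factors, gave -0.17 (Id1), -0.02 (Id2), 0.15 (Id3) and -0.35 (Id4), with opposite directions in the 2 experiments for each of them. Msi1, an RNA-binding protein, had the largest downward difference of the list (-0.98, SE 0.75, a bound). It read 14.9 and 78.0 with TSA and was under the floor on both AzaC/TSA arrays, so that the difference came from experiment 2.

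Whether neural stem genes were partly kept can be read only gene by gene. Of the 28 genes, 10 lay below untreated with TSA in both experiments and 9 above. The AzaC/TSA signal lay between the TSA and the untreated signal of its experiment, in both experiments, for 5 of the 10 (Fabp7, Ptprz1, Pax6, Bmi1 and Egfr) and, from the other side, for Numb among the 9. The TSA arrays enter both sides of this reading, so it is a description with no test. Of all 6011 genes, 2019 lay below untreated with TSA in both experiments. How many of those lay in between with AzaC/TSA is not given here, so 5 of 10 cannot be called particular to neural stem genes. With TSA alone limma called 2 of the 28 genes lower (Fabp7 and Bmi1) and 1 higher (Mfge8) against untreated, in a comparison that called 2.93% of probe sets lower and 2.09% higher, and the block gave 4 lower and 3 higher. With AzaC/TSA it called 0 of the 28 against untreated, where 1.83% of probe sets were called lower and 1.29% higher, and the block gave 2 lower and 3 higher. That a gene passed in 1 of these comparisons and not in the other does not show that they differ, and AzaC/TSA against TSA is the test of that difference. The shares of probe sets come from the fit without the block. Shares with the block are not given here, so the block counts have no background to be read against.

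**Figure D2:**
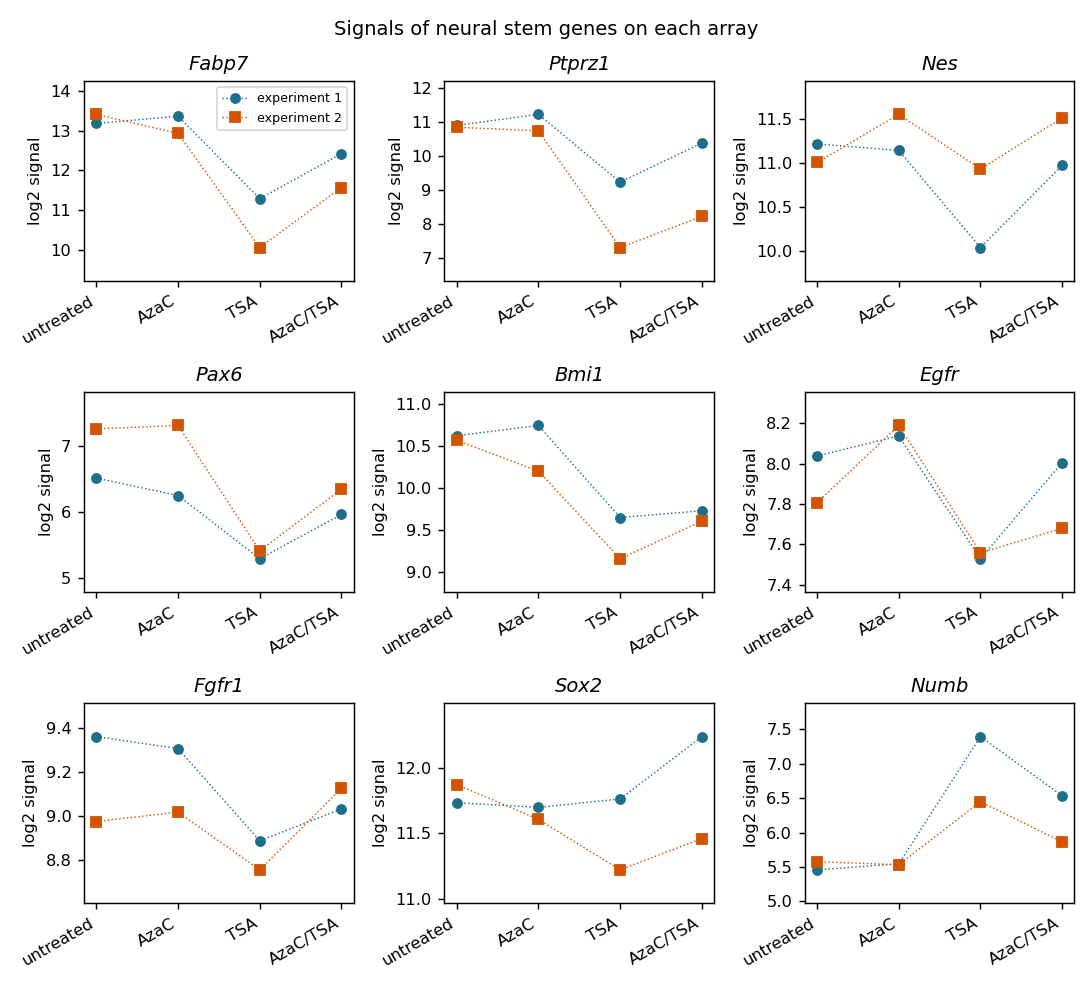
Log2 signal of 9 neural stem genes on each of the 8 arrays, with groups on the x axis; dotted lines join the arrays of 1 experiment and each panel has its own y range. Fabp7, Ptprz1, Pax6, Bmi1 and Egfr lie lower with TSA than untreated and in between with AzaC/TSA in both experiments, and Numb has the opposite order of groups.

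The genes farthest apart in the same direction in both experiments were mostly dim. Since none passed the test, the 12 genes each way were those whose smaller difference of the 2 experiments was largest, and all 24 had an adjusted p of 1.0 in limma, with unadjusted p from 0.000341 to 0.135. Of the 12 higher genes 8 had a TSA array under the floor, and of the 12 lower genes 9 had an AzaC/TSA array under it, so that these differences are lower bounds. The choice of these genes used both groups, and the absence of overlap among them follows from that choice. Pou3f2 and Nkx1-2 reached the filter signal of 50 on the AzaC/TSA arrays alone, and Rasal1, Ly6g and Cd160 on the TSA arrays alone. Gata4, Reg2, Ascl2 and Nrk also passed the filter only with the arrays of their higher group counted. These genes were thus tested because of the group in which they were high.

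Among the 12 higher genes, Pspn (persephin, a neurotrophic factor of the GDNF family) read 24.4 and 30.3 with TSA and 131.2 and 170.6 with AzaC/TSA, a difference of 2.46 (SE 0.67). Pspn was uneven without TSA, with 115.2 and 23.6 in untreated cells. Repin1, a zinc finger protein, read 39.9 and 25.7 with TSA and 178.6 and 164.5 with AzaC/TSA (2.42, SE 0.58), near its untreated 177.4 and 299.4. A second Repin1 probe set lay the other way at -0.87. Dtl, a substrate receptor of the CRL4 ubiquitin ligase that acts in S phase, read 154.0 and 400.5 untreated, 2.2 and 10.7 with TSA and 72.2 and 57.4 with AzaC/TSA (at least 1.69). Dtl fell with TSA (log2 difference -3.63, a lower bound of its size, limma adjusted p = 0.00719). Fgd1, an exchange factor for Cdc42, read 84.7 and 97.3 untreated, 14.3 and 7.5 with TSA and 55.6 and 68.0 with AzaC/TSA (at least 1.62). Pou3f2, a POU factor of neural progenitors and neurons, read 13.0 and 15.2 with TSA and 82.2 and 60.1 with AzaC/TSA (at least 1.81), and 14.9 and 8.6 untreated. The others were Plcd1 (at least 1.95), Pecam1 (at least 1.80), Gata4 (at least 1.77), Pmm2 (1.75), Nkx1-2 (at least 1.71), Snrp1c-ps2 (1.63) and Prl (at least 1.54). AzaC alone lay above untreated in both experiments for 6 of the 12 and below it in both for 3, against 1544 and 1390 of all 6011 genes.

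Among the 12 lower genes, Cd4, known as a T cell co-receptor, read 96.9 and 143.3 with TSA and 18.9 and 14.5 with AzaC/TSA, a difference of -2.56, which is a lower bound of its size (limma unadjusted p = 0.000341). Cd4 read 18.1 and 20.2 untreated and 107.8 and 93.1 with AzaC alone, so that each agent alone gave a higher signal than untreated and both together did not. Reg2, a secreted lectin-like protein, read 122.9 and 172.9 with TSA and 29.3 and 19.3 with AzaC/TSA. It read 11.3 and 30.3 untreated and 38.4 and 66.0 with AzaC alone. Erdr1 read 1556.0 and 944.8 with TSA and 213.0 and 206.0 with AzaC/TSA (-2.53, SE 0.88), but its untreated arrays read 223.3 and 2590.6 and a second probe set lay at 0.74. Ascl2, an imprinted basic helix-loop-helix factor, read 87.8 and 65.8 with TSA and 15.2 and 19.7 with AzaC/TSA. The differences of the others were Ankrd11 (-1.88), Cd160 (-1.75), F2rl2 (-1.74), Uba7 (-1.62), Rasal1 (-1.56), Ly6g (-1.54), Nrk (-1.49) and Thap7 (-1.44), of which those of Rasal1 and Thap7 are not bounds. Among the 12 lower genes, AzaC alone lay above untreated in both experiments for 4 and below it in both for 2.

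The smallest p-value of the comparison belonged to a probe set without a gene symbol, singled out after its values were seen. It read 347.9 and 310.3 with TSA and 25.3 and 15.1 with AzaC/TSA (-3.87, SE 0.53, limma unadjusted p = 4.71e-05, adjusted p = 0.376), and between 83.5 and 727.5 on the other arrays.

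**Figure D3:**
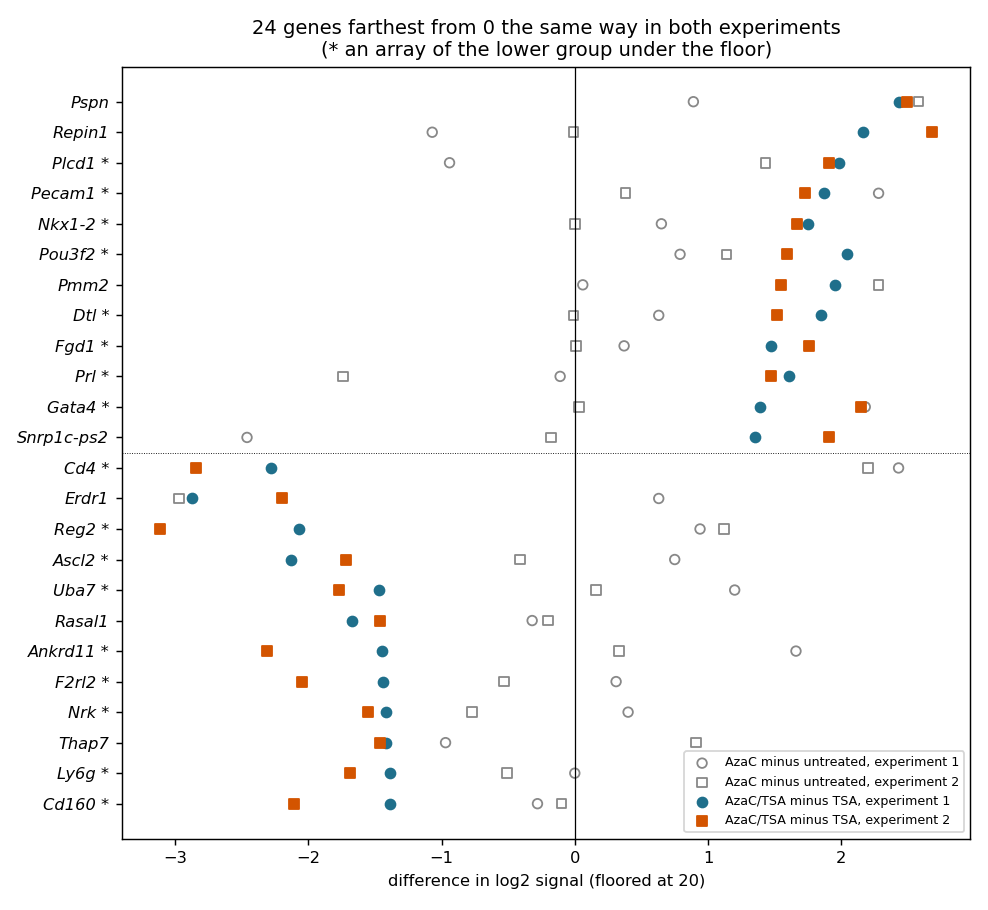
Log2 difference of AzaC/TSA minus TSA in each experiment (filled) and of AzaC minus untreated in each experiment (open) for the 12 genes farthest above and the 12 farthest below 0 in both experiments; an asterisk marks a gene with an array of the lower group under the floor of 20. Open symbols scatter on both sides of 0, and for Cd4, Reg2, Uba7 and Ankrd11 they lie to the right while the filled ones lie to the left.

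Genes of the extracellular matrix and of growth arrest also had more members higher than lower with AzaC added. Of 43 matrix and adhesion genes tested, 20 (46.5%) were higher in both experiments and 6 (14.0%) lower, with a median of 0.21, and 0 were called. Within experiments 1 and 2 the median was 0.06 and 0.36. Leaving out 1 array, which unbalances the experiments, gave -0.07 without the TSA array of experiment 2 and 0.47 without that of experiment 1. Bcan (brevican, a brain proteoglycan of glial progenitors) read 3623.4 and 2524.7 untreated, 659.1 and 367.7 with TSA and 1239.6 and 700.8 with AzaC/TSA. Both AzaC/TSA arrays of Bcan lay above both TSA arrays (0.92, SE 0.46), and its second probe set gave 1.46. Vcan (versican) differed by 0.85 and Timp2, an inhibitor of matrix metalloproteinases, by 1.05, whereas Timp1 read 794.8 and 1971.1 with TSA and 666.7 and 413.3 with AzaC/TSA (-1.25, SE 0.44).

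Of 27 p53 target and growth arrest genes tested, 12 (44.4%) were higher in both experiments and 1 (3.7%) was lower, with a median of 0.19. Within experiments 1 and 2 the median was 0.09 and 0.21. Leaving out 1 array, which unbalances the experiments, gave 0.08 without the TSA array of experiment 2. It gave 0.12 without the AzaC/TSA array of experiment 2. Gas1, a membrane protein that binds hedgehog ligands and is linked to growth arrest, read 1815.3 and 2835.6 untreated, 923.2 and 471.0 with TSA and 1620.8 and 969.2 with AzaC/TSA. The groups did not overlap (0.93, SE 0.43, limma unadjusted p = 0.0579), and Gas1 fell by 1.78 with TSA (limma adjusted p = 0.0486). Klf4, a Krüppel-like factor, read 72.7 and 63.6 with TSA and 121.6 and 253.4 with AzaC/TSA (1.37, SE 0.52). Cdkn2b, an inhibitor of Cdk4 and Cdk6, read 220.6 and 15.7 with TSA and 287.0 and 189.4 with AzaC/TSA, and its difference of at least 1.81 came mostly from experiment 2. Gas2 differed by 0.70.

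For genes of cell division, shares are set against the 24.7% of all genes that were higher and the 27.7% that were lower. Of 41 DNA replication genes, 5 (12.2%) were higher with AzaC added in both experiments and 14 (34.1%) lower, with a median of -0.10. Of 40 mitosis genes, 4 were higher and 12 lower, with a median of -0.01. Within experiments 1 and 2 the median was -0.17 and -0.15 for replication and -0.08 and -0.07 for mitosis. Both medians changed sign with 1 array left out, which unbalances the experiments. They became 0.02 and 0.20 without the AzaC/TSA array of experiment 1, and that of mitosis became 0.15 without the TSA array of experiment 2. With TSA alone limma called 13 of the 41 and 34 of the 40 lower than untreated, against 2.93% of probe sets. Mcm5, a subunit of the replicative helicase, read 753.7 and 925.8 untreated, 46.1 and 38.6 with TSA and 72.7 and 137.3 with AzaC/TSA, above TSA in each experiment (1.24, SE 0.39) and below untreated by limma (log2 difference -3.06, adjusted p = 0.00573). Kif2c, a mitotic kinesin, went the other way from 40.8 and 76.1 with TSA to 23.7 and 22.4 with AzaC/TSA (-1.27, SE 0.40). Pold1, the catalytic subunit of DNA polymerase delta, differed by -1.23, Lig1 by -1.06 and Rfc2 by -0.67, while Racgap1 differed by at least 1.22 with opposite directions in the 2 experiments.

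Markers of neurons and astrocytes had medians near 0 between AzaC/TSA and TSA. Of 30 neuron genes 5 (16.7%) were higher and 8 (26.7%) lower in both experiments, with a median of 0.0, and 11 of the 30 were called higher with TSA alone, against 2.09% of probe sets. Ncam1, a neural adhesion molecule, read 438.7 and 819.6 untreated, 3879.9 and 3351.4 with TSA and 3168.2 and 1382.1 with AzaC/TSA (-0.79, SE 0.42). Reln, which guides migrating neurons, read 230.4 and 323.8 with TSA and 217.0 and 44.3 with AzaC/TSA (-1.48, SE 0.67), a difference that came from experiment 2. Mapt, the microtubule protein tau, was higher by 0.39 and Cplx2 by 0.85. Of 15 astrocyte genes 4 (26.7%) were higher and 1 (6.67%) lower, with a median of 0.07. That 1 was Clu, a secreted chaperone, which read 79.6 and 74.8 untreated, 1638.2 and 2048.7 with TSA and 1055.6 and 1021.8 with AzaC/TSA. Clu did not overlap between the groups (-0.82, SE 0.28, limma unadjusted p = 0.0161), a second probe set gave -0.51, and with AzaC/TSA it stayed above untreated by 3.75 (limma adjusted p = 0.000591). S100b, a calcium-binding protein of astrocytes and their precursors, read 59.7 and 62.9 with TSA and 71.2 and 104.2 with AzaC/TSA (0.49). Gfap and Tubb3 differed by 0.07 and 0.04.

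The summed signal of the marker lists, over 1 probe set per gene on the array whether tested or not, gives the scale of these shifts. For 43 neuron markers it was 15837 and 12815 with TSA and 15326 and 10506 with AzaC/TSA, and for 33 neural stem markers 23481 and 19841 against 32430 and 24022. For 18 astrocyte markers it was 21753 and 11394 against 28054 and 13731, for 20 fibroblast and meninges markers 7142 and 3777 against 10291 and 4890, and for 12 oligodendrocyte lineage markers 399 and 491 against 412 and 467. For 42 blood markers it was 1394 and 1676 against 1227 and 1478, for 17 microglia and macrophage markers 697 and 1048 against 583 and 983, and for 14 endothelial markers 318 and 424 against 423 and 527. Of these, 20 of the blood, 8 of the microglial and 9 of the endothelial markers stayed under a signal of 50 on every array. The stem, astrocyte, fibroblast and endothelial sums were higher with AzaC added in both experiments. In the fibroblast and astrocyte lists 1 gene each, picked out after its values were seen, held most of the difference. Without Fbln2, a matrix protein, the fibroblast sum was 2649 and 2537 with TSA and 2636 and 2589 with AzaC/TSA. Without Apoe, a lipid carrier, the astrocyte sum was 17620 and 11086 against 19937 and 11782. Fabp7 and Pecam1, picked in the same way, had the largest changes in the stem and endothelial lists. Without Fabp7 the stem sum was 20984 and 18778 against 26930 and 20986. Without Pecam1 the endothelial sum was 308 and 404 against 350 and 460. The part of these cell types in the differences of other genes was not tested.

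The 3 endothelial genes tested were all higher in both experiments, with Pecam1, an endothelial adhesion molecule, at 10.6 and 19.7 with TSA and 72.9 and 66.6 with AzaC/TSA. Of 7 oligodendrocyte lineage genes 3 (42.9%) were higher and 1 lower, Nkx2-2, which was under the floor on both AzaC/TSA arrays. Of 15 blood genes 1 (6.67%) was higher and 4 (26.7%) lower, with Elane at -0.53 and Gata1 at -0.73, the latter a bound. Cd34 and Kit, markers of blood progenitors, stood at 0.13 and -0.46, both bounds since an array of the lower group was under the floor. Of 6 microglia genes 0 were higher and 2 (33.3%) lower, among them the receptor Csf1r, at 30.4 and 72.9 with TSA and 7.8 and 42.2 with AzaC/TSA. Of 14 fibroblast genes 3 (21.4%) were higher and 4 (28.6%) lower, and of 15 muscle genes 1 (6.67%) was higher and 5 (33.3%) lower, among them Tpm2 (-1.07, a bound).

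Imprinted, germ line, interferon and MHC genes are classes often examined after loss of DNA methylation. Of 20 imprinted genes, expressed from 1 parental copy, 6 were higher and 6 lower in both experiments, with a median of 0.0. Mest read 468.3 and 808.2 untreated, 199.5 and 312.4 with TSA and 344.6 and 487.8 with AzaC/TSA (0.72, SE 0.37), and Sgce read 421.8 and 419.2 with TSA and 720.2 and 550.7 with AzaC/TSA (0.58, SE 0.27). Ascl2, above, and Impact (-0.74, a bound) were on the lower side. Of 9 germ line and testis genes 1 (11.1%) was higher and 1 lower. Of 12 interferon response genes 1 (8.33%) was higher, the GTPase Irgm2 (0.73), and 4 (33.3%) lower. Of 16 MHC class I and antigen processing genes 5 (31.2%) were higher and 5 lower, with the proteasome activator Psme1 at -0.38.

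The targets of the agents were measured too. Dnmt1, the maintenance DNA methyltransferase, read 536.0 and 749.9 untreated, 251.6 and 376.3 with TSA and 187.5 and 228.7 with AzaC/TSA. Both AzaC/TSA arrays lay below both TSA arrays (-0.57, SE 0.30), and against untreated AzaC/TSA was lower by 1.61 (log2 difference -1.61, limma adjusted p = 0.026). Uhrf1, which recruits Dnmt1 to replicated DNA, differed by -0.48, and Dnmt3a, a de novo methyltransferase, read 38.5 and 51.5 with TSA and 92.7 and 66.6 with AzaC/TSA (0.82, SE 0.69). Hdac1 and Hdac2, targets of TSA, differed by -0.24 and -0.09. Of all 39 chromatin and DNA methylation enzymes 11 (28.2%) were higher and 12 (30.8%) lower. Kat2b, a histone acetyltransferase, was higher by 0.73, and Mbd2, which binds methylated DNA, and Sin3a, a corepressor scaffold, stood at -0.75 and -0.45. Bcl2 differed by 0.39, with -0.03 in experiment 1 and 0.81 in experiment 2, and another probe set gave 0.91. The part of the transgene in these signals was not tested.

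Stress, apoptosis and sterol genes completed the lists. Of 44 stress response genes 11 were higher and 13 (29.5%) lower. Ddit3 (CHOP), a transcription factor of endoplasmic reticulum stress, read 167.1 and 104.1 untreated, 419.2 and 461.4 with TSA and 231.7 and 268.5 with AzaC/TSA, without overlap (-0.82, SE 0.32, limma unadjusted p = 0.0311). Of 21 apoptosis genes 6 (28.6%) were higher, among them Cycs (cytochrome c, 0.57), and 5 (23.8%) lower, among them Casp9 (-0.71). Of 17 cholesterol synthesis genes 1 (5.88%) was higher and 7 (41.2%) lower, with a median of -0.16. Within experiments 1 and 2 the median was -0.24 and -0.15. Leaving out the AzaC/TSA array of experiment 1, which unbalances the experiments, gave 0.05. Srebf1, a transcription factor of lipid synthesis, was the member that was higher, at 531.5 and 222.6 with TSA and 817.7 and 1267.2 with AzaC/TSA (1.57, SE 0.59). Dhcr7, Fdps and Fdft1, enzymes of the pathway, differed by -0.68, -0.54 and -0.46. In all of these lists 0 genes were called between AzaC/TSA and TSA.

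**Figure D4:**
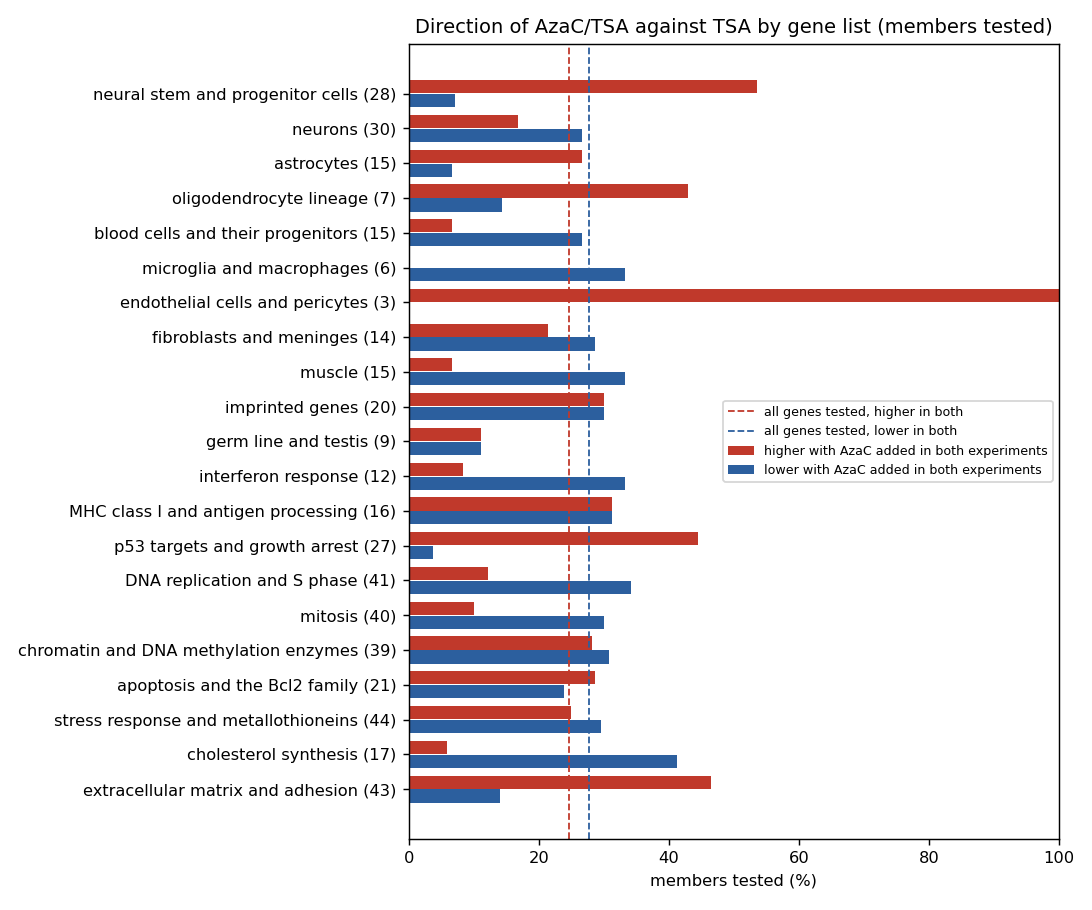
Percent of the members tested that were higher (red) or lower (blue) with AzaC added in both experiments, for 21 gene lists with the number tested in parentheses; dashed lines give the same for all 6011 genes (24.7% and 27.7%). Neural stem, growth arrest and matrix genes have long red and short blue bars, and lists of under 10 genes, such as the endothelial list of 3, are carried by single genes.

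AzaC in the absence of TSA, measured in the other 4 arrays, also gave 0 calls in limma (0.0%), with 175 probe sets at an unadjusted p under 0.05, a smallest adjusted p of 1.0 and 0 calls with the block. Its differences in the 2 experiments correlated at r = 0.02 over all probe sets and at -0.01 over the brightest. The AzaC minus untreated differences, which share no array with the AzaC/TSA minus TSA differences, correlated with them at r = 0.11 over the 7987 probe sets and at 0.28 over the brightest. The neural stem genes had a median of 0.03 with AzaC alone, with 8 of 28 higher and 6 lower in both experiments, against 15 and 2 in the presence of TSA. Of all 6011 genes, 1544 were higher and 1390 lower in both experiments with AzaC alone. Whether the list as a whole differed between cells with and without TSA was not tested.

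The interaction, which tests whether AzaC differs in effect with and without TSA, also gave 0 calls in limma (0.0%), with 142 probe sets at an unadjusted p under 0.05, a smallest adjusted p of 0.29 and 0 calls with the block. Its median standard error was 0.58. The smallest p on the positive side belonged to Repin1 (2.96, limma unadjusted p = 0.00578), Snrp1c-ps2 (2.96, unadjusted p = 0.00648) and Dynlrb1 (1.18, unadjusted p = 0.00699). Dynlrb1, a dynein light chain, read 1211.3 and 985.7 untreated, 802.8 and 1009.7 with AzaC, 506.2 and 500.1 with TSA and 906.5 and 978.9 with AzaC/TSA. The TSA arrays of Dynlrb1 were the lowest and the other groups overlapped, while a second probe set differed by -0.07. On the negative side stood Cd4 (-4.87, limma unadjusted p = 3.63e-05), Reg2 (-3.62, unadjusted p = 0.000894) and Chst3, a chondroitin sulfotransferase (-2.70, unadjusted p = 0.0039). Cd4 passed only without the intensity trend of the variance, with an adjusted p of 0.048.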

How the data were processed

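RNA of neurosphere cells was measured on 8 arrays, 2 for each of 4 groups. The authors deposited linear intensity values, which they had scaled to 1 trimmed mean per array (200.1 after trimming 2%, as the values show); the upstream software is not given in the sources used here. After 66 control probe sets were left out of 12488, values under 10% of that mean (20) were raised to it and log2-transformed, and probe sets at 25% of it (50) or more on at least 2 arrays were tested (7987). The array annotation gave a single symbol to 10855 probe sets, several to 396 and none to 1237; 10839 of the single ones were found by identifier in the reference. The 759 tested probe sets without a single symbol were counted, not named. A gene's probe set of highest mean over 8 arrays stood for it (6011 genes, 1044 with several).

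limma 3.58.1 in R 4.3.3 (lmFit, eBayes with an intensity trend) fitted 1 mean per group over all 8 arrays (4 residual degrees of freedom, prior 4.93); tests were two-sided, with Benjamini-Hochberg adjustment over the 7987 probe sets and a threshold of 0.05. Differences resting on an array under the floor in the lower group are called at least. Titles number the experiments, and deviations from group means correlated by experiment between groups (r from 0.203 to 0.411 over 6 pairs of groups, 0.411 for TSA with AzaC/TSA), so same-numbered arrays are paired; the experiment as a block was an alternative. The fit was tested on simulated data.

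Genes were named by rule: the 12 each way past the threshold, filled with those whose smaller difference of both experiments was largest; all neural stem genes tested; up to 4 of each list by p; a fixed set around Dnmt1, Hdac1, Bcl2 and cell type markers; and the interaction's 3 each way by p. Members and lists were chosen with earlier results of these data known. Alternatives changed the scaling, floor, filter, variance model, samples in the fit and block, and left out each array in turn.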

Additional observations from a re-analysis of the deposited data

How the results depend on the processing

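Across scaling, floor, filter, variance and sample alternatives, AzaC/TSA against TSA gave 0 calls except without the filter (11); the replicate block also gave 0. AzaC against untreated gave 0 except without the filter (13), and the interaction 0 except without the filter (11) or without the intensity trend (1). Leaving out each array in turn gave 0 calls in all 3. The 96 probe sets at least 2-fold the same way in both experiments became 29 with double the floor, 48 with an offset in its place and 40 with double the filter signal, each time with fewer in opposite directions (18, 40 and 23). The 3 neural stem genes called with TSA alone became 0 without the filter, 1 without the variance trend, 1 when only the compared groups were fitted and 7 with the replicate block, and 0 to 3 with an array left out. The count of neural stem genes higher with AzaC added in both experiments was 15 or 16 under alternatives chosen after seeing the data. These changed only the scaling, the floor, the filter or the use of a gene's probe sets. With a TSA or AzaC/TSA array left out the count cannot be made, because an experiment then lacks its pair. The median of the neural stem list did move in those fits, as given above. Another variance model or the block leaves each difference as it is, so neither could change the count. Scaling moved the median of all genes by at most 0.02. Of 2071 values of 105 named genes under the alternatives, 2032 kept their direction and none passed the threshold, and 39 had the opposite sign. Part of these values could not change direction. The AzaC/TSA minus TSA difference stays the same with another variance model, with only the compared groups fitted or with the block. It also stays the same with an untreated or an AzaC array left out. Hes1 was 0.0 with quantile normalization and 0.01 with median centring, and Id2 likewise 0.0 and 0.01. With an array left out, which also unbalances the experiments, differences ran from -0.03 to 0.75 for Sox2, from -1.04 to 0.64 for Sox1, from -0.24 to 0.21 for Hes1, from -0.03 to 0.83 for Notch1, from -0.42 to 1.60 for Prom1, from -0.93 to 0.90 for Id2, from -0.47 to 0.77 for Id3, from -1.41 to 0.70 for Id4, from -0.38 to 1.13 for Tnc, from -0.46 to 0.74 for Cdh2, from -1.68 to 1.06 for Hmga2, from -0.05 to 2.11 for Ptprz1, from -0.50 to 1.68 for Hey1, from -0.18 to 0.02 for Rbpj, from -0.90 to 0.40 for Zic1, from -0.26 to 0.02 for Mfge8, from -0.97 to 0.02 for Uhrf1, from -0.50 to 0.02 for Hdac1, from -0.09 to 0.22 for Gfap, from -0.38 to 0.46 for Tubb3, from -1.0 to 1.25 for Cd34 and from -1.02 to 0.10 for Kit. The cause was not tested. The 2 arrays per group limit the precision, and differences that rest on signals near the floor are bounds.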
